A study of Mus musculus with 14 samples.

Results

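The Hox cluster genes were followed across 14 mouse expression arrays of germline-derived pluripotent stem cells, germline stem cells and embryonic stem cells. They were taken as every probe whose platform gene symbol was Hoxa, Hoxb, Hoxc or Hoxd with a number. This gave 50 of 25697 probes and 38 of 16593 gene symbols, namely 10 HoxA, 10 HoxB, 9 HoxC and 9 HoxD genes. Choosing them used no measured value.

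Hox genes encode homeodomain transcription factors that give cells along the body axis their position. They lie in clusters, and genes toward one end of a cluster are in general switched on earlier and further toward the head than those at the other end. In pluripotent cells the clusters are a textbook target of polycomb repression, which marks their chromatin with methylated histone H3, and trithorax proteins act against that repression. Cdx factors and retinoic acid are known inputs that switch the clusters on in the embryo, and Pbx, Meis and Pknox proteins bind DNA together with Hox proteins.

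Germline-derived pluripotent stem (gPS) cells, which the series calls clonal, came as 3 OG2 lines of strain C57BL6 with an Oct4-GFP transgene, and as 3 OG2-ROSA lines of strain C57BL6 x 129sv with Oct4-GFP and Lacz transgenes. Germline stem cells (GSC), unipotent by their labels and grown in culture from testis, came as 3 OG2 and 3 OG2-ROSA lines of the same strains and transgenes. Embryonic stem cells (ESC) came as 2 arrays of strain C57BL6, and no transgene was named for them. Oct4-GFP is a reporter that was thus shared by every gPS and GSC line. Strain, Lacz transgene and a replicate mark in the OG2 and ESC titles cannot be told apart. The number of arrays differs from the series text, where 13 are mentioned and line 2 of GSC OG2-ROSA is said to be replicated, while here that line had 1 array of 14. The text also speaks of biological or technical duplicates, so the ESC arrays may be technical repeats, and p-values measure only the spread between these arrays.

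Mean signal lay between 513.4 and 639.5 on 12 arrays and was 379.1 and 308 on gPS OG2-ROSA lines 1 and 2. Between 9638 and 11610 probes were detected per array, where detected means a detection p under 0.01. After normalization, detected probes began at a log2 intensity of 5.96 to 6.22 on the gPS arrays, 5.54 to 5.73 on the GSC arrays and 6.02 and 6.21 on the ESC arrays. The cell types carried their markers: of 5 pluripotency genes (Nanog, Pou5f1, Sox2, Esrrb and Zfp42), 5 were detected on every gPS array, 3 or 4 on the GSC arrays and 5 on both ESC arrays. Of 5 germline stem cell genes (Dazl, Ddx4, Ret, Sohlh1 and Gfra1), 0 to 2 were detected on the gPS arrays, 4 or 5 on the GSC arrays and 1 on each ESC array.

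Markers of other cell types were read too, of which the fibroblast and stroma genes are not particular to the testis. The linear signals of 9 fibroblast and stroma genes summed to 1340 to 3530 on the gPS arrays, 1240 to 17900 on the GSC arrays and 1370 to 1410 on the ESC arrays, with 2 to 7, 5 to 8 and 3 or 4 of them detected. Postn was detected on no array. In gPS against GSC lines limma called 5 of the 8 stromal genes tested lower and 1 higher (Vim, log2 change 0.65). Of all probes tested 33.5% were called lower and 30.4% higher. Among 5 Sertoli markers 1 or 2 were detected per GSC array. Wt1 had a log2 intensity of 7.66 to 10.30 on the GSC arrays and Sox9 was detected on 1 of them. Amh, Gata4 and Gata1 were undetected on every array. Of 5 Leydig markers 0 were detected on any GSC array. Of 4 peritubular markers Acta2 alone was detected on the GSC arrays, and Myh11 and Cnn1 were undetected on every array. The arrays measured RNA of whole cultures, in which fewer cells of a type and less RNA per cell cannot be told apart.

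RefSeq promoter sequences were at hand for 22 of the 38 genes, as 24 stretches from 250 bases before to 50 bases after a start site (build GRCm38.p6). The sequences of Hoxb1, Hoxb4 and Hoxd8 are shown since those were the genes with lower signal in gPS lines that had one. The sequence of Hoxb8 is shown because Hoxb8 lies inside the same cluster and was detected on no array. Capitals mark CG dinucleotides (CpG), the sites of DNA methylation in mammals, and all 4 read 5′ to 3′ on the plus strand. They lie at chr11:96365508-96365807 (Hoxb1), chr11:96318017-96318316 (Hoxb4), chr11:96281655-96281954 (Hoxb8) and chr2:74704365-74704664 (Hoxd8).
Hoxb1: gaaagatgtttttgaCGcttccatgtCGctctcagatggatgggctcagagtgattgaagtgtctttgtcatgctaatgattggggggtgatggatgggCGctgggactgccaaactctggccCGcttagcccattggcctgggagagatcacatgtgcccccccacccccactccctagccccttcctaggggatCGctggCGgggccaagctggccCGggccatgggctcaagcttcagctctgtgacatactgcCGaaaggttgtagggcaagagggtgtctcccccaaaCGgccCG
Hoxb4: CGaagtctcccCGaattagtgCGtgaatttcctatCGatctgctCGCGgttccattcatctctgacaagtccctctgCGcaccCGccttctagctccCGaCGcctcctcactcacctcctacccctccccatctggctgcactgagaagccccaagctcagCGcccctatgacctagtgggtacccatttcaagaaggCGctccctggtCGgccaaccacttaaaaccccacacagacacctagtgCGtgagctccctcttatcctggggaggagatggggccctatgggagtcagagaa
Hoxb8: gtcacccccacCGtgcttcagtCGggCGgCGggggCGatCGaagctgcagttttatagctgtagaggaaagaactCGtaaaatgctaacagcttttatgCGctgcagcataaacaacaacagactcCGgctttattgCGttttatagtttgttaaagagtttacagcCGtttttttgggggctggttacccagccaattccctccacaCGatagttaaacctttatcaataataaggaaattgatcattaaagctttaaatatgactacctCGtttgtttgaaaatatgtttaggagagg
Hoxd8: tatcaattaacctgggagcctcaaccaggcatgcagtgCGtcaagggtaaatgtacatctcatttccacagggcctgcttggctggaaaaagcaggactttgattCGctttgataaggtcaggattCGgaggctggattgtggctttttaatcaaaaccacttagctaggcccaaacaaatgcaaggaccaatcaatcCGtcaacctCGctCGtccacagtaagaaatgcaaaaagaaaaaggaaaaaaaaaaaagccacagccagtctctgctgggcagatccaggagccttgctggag
The Hoxb4 stretch held 14 CpGs, that of Hoxb8 13, that of Hoxb1 10 and that of Hoxd8 6. The 24 Hox promoters held a median of 14.5 CpGs (range 4 to 45), against 7 over all 32841 promoters of the table. The 14 promoters of genes detected on no array held a median of 17.5 (4 to 37) and the 3 promoters of called genes shown here a median of 10. The highest number, 45, was that of Hoxa13, which was detected on 10 arrays. Letter matches on either strand were counted as a description only. CCAAT occurred in 15 of the 24 Hox promoters (62.5%) and in 37.4% of all promoters. TATAAA occurred in 4 (16.7%) against 13.6%. TTTATG, letters that Cdx factors can bind, occurred in 5 (20.8%) against 11.9% of all promoters, with 2 matches in Hoxb8 and 0 in the other 3 shown. TGATTNAT, a Hox and Pbx pair site, occurred in 2 (8.33%) against 3.22%. Direct repeats of AGGTCA spaced by 2 or 5 bases, which retinoic acid receptors can bind, were found in 0 of the 24 windows and in 0.009% of all promoters at either spacing.

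More Hox genes were detected in every germline stem cell line than in any pluripotent line or embryonic stem cell array. Of the 38 genes, 1 to 4 were detected on each gPS array (2, 2 and 4 in OG2 lines 1 to 3, and 1, 3 and 1 in OG2-ROSA lines 1 to 3). On the GSC arrays it was 10 to 16 genes (16, 10 and 14 in OG2, and 10, 14 and 11 in OG2-ROSA), and on the ESC arrays 1 and 3. The groups did not overlap, as the lowest GSC array stood above the highest gPS and ESC arrays. The share of all probes detected differed far less, at 37.5% to 40.1% on gPS arrays, 42.6% to 45.2% on GSC arrays and 37.5% and 39.4% on ESC arrays.

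Of the 38 genes, 18 were detected on no array. They were Hoxa3, Hoxa4, Hoxa6, Hoxa9, Hoxa10, Hoxa11, Hoxb8, Hoxb13, Hoxc4, Hoxc5, Hoxc8, Hoxc12, Hoxd1, Hoxd3, Hoxd4, Hoxd9, Hoxd12 and Hoxd13. They make up 6 of 10 HoxA, 2 of 10 HoxB, 4 of 9 HoxC and 6 of 9 HoxD genes, and 45.3% of all probes were likewise detected on no array. Another 4 genes were detected on 1 array each: Hoxa2 on ESC array 2 (log2 intensity 6.07), Hoxc11 on that of GSC OG2-ROSA line 2 (5.79), Hoxd10 on that of gPS OG2-ROSA line 2 (6.28) and Hoxd11 on ESC array 1 (6.38). These levels lie close to where detection began, and an undetected probe, one with a detection p of 0.01 or more, was not told apart from background, which does not show the absence of a transcript.

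The remaining 16 genes, with 18 probes, were detected on at least 2 arrays and were tested, as were 50.7% of all probes. Of these genes 8 were HoxB, 4 HoxC (Hoxc6, Hoxc9, Hoxc10, Hoxc13), 3 HoxA (Hoxa5, Hoxa7, Hoxa13) and 1 HoxD (Hoxd8). Detection on all 6 GSC arrays was found for 7 of them, namely Hoxb2, Hoxb4, Hoxb5, Hoxb6, Hoxb7, Hoxc6 and Hoxc9. Of those 7, Hoxb4, Hoxb5, Hoxb6, Hoxb7 and Hoxc9 were detected on no gPS and no ESC array, a pattern shown by 2.19% of all probes.

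**Figure D1:**
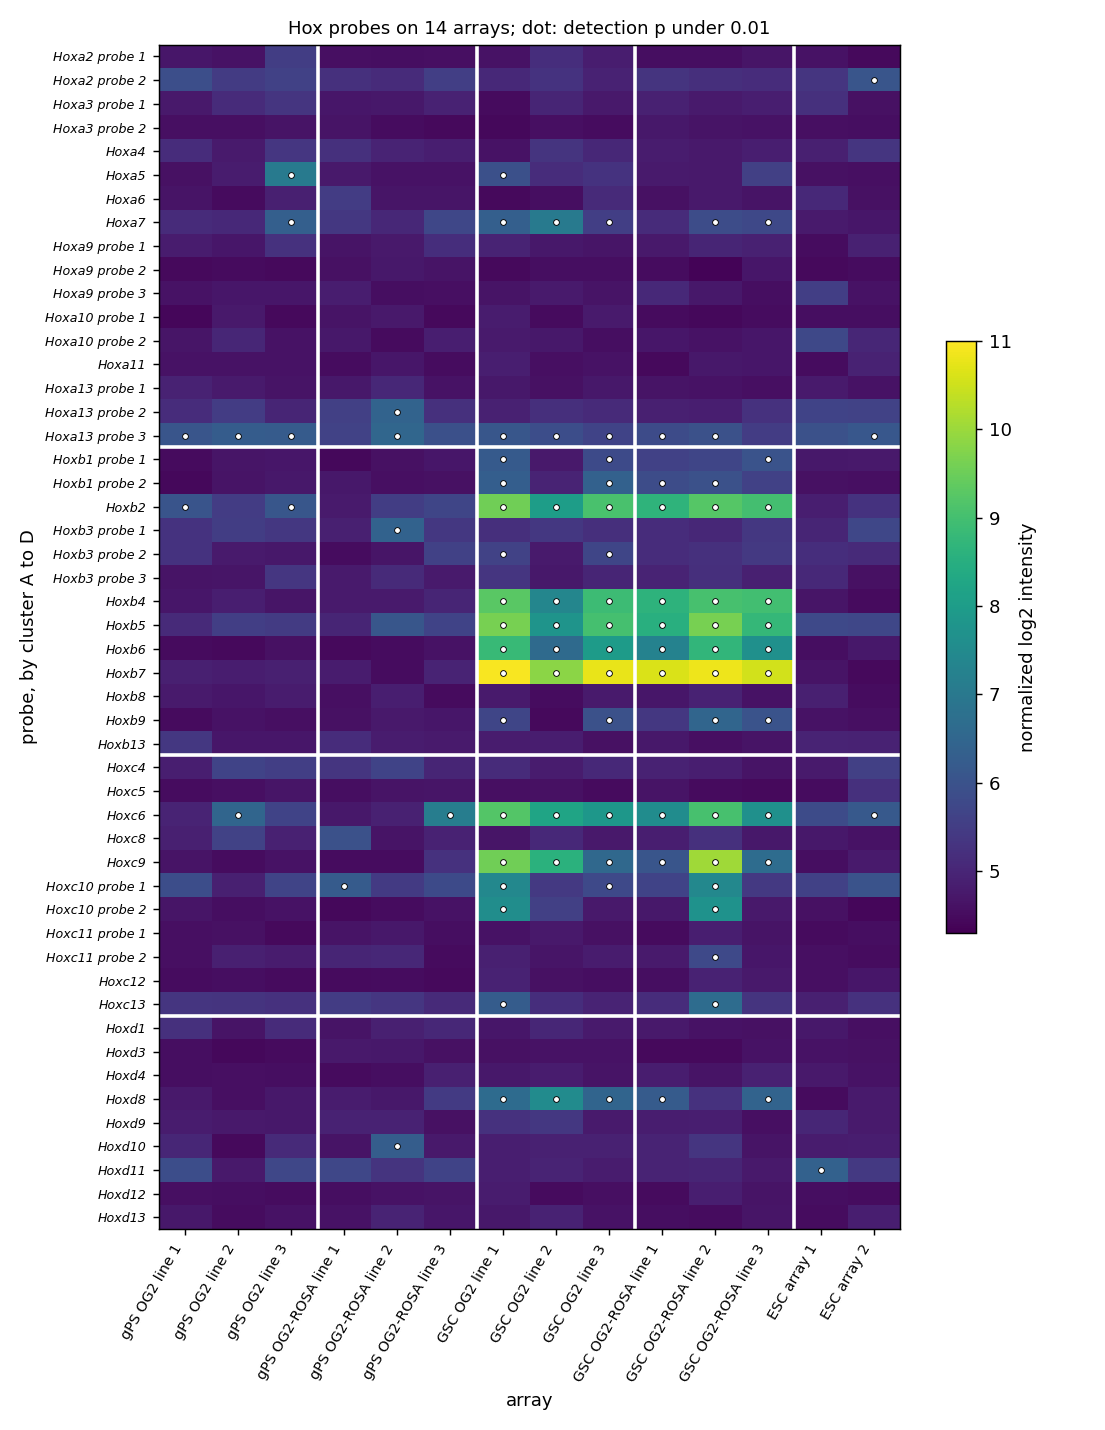
Normalized log2 intensity of the 50 Hox probes (rows, by cluster A to D; genes with several probes are numbered) on 14 arrays (columns), where a dot marks a detection p under 0.01. The GSC columns hold 10 to 16 detected genes each, against 1 to 4 in the gPS columns and 1 and 3 in the ESC columns, and Hoxb4 to Hoxb7 are detected in every GSC column and in no gPS or ESC column.

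The central comparison asked how the Hox genes differed between the pluripotent lines and the germline stem cells, with both backgrounds averaged. The signal of 12 of the 18 Hox probes tested, for 11 genes, fell in gPS lines, and 0 rose (limma, adjusted p under 0.05 over 13034 probes). Of all probes tested 63.9% were called in this comparison, 33.5% lower and 30.4% higher. The median log2 change of the Hox probes was -1.25, against -0.04 over all probes tested, and 17 of the 18 lay below 0. Many of the 18 probes passed the detection filter through GSC arrays alone. The counts, the median and the array overlap given here thus describe the tested probes and not the 38 genes. They lean toward lower gPS values by that choice. Of all calls 47.6% were higher in gPS lines. With arrays scaled to their median instead, that share was 34.7%, the median change of all probes was -0.28, and 11 of the 12 Hox calls were kept, all lower in gPS lines (Hoxc10 was lost). All 6 gPS arrays lay below all 6 GSC arrays for 10 of the 18 probes, from 9 genes, as they did for 20.4% of all probes tested.

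Among the HoxB genes, Hoxb2, Hoxb4, Hoxb5, Hoxb6 and Hoxb7 were detected on all 6 GSC arrays and were lower in gPS lines. Hoxb7, a gene of the trunk region of the embryo, had a lowest, median and highest log2 intensity of 4.52, 4.87 and 4.97 on gPS arrays, 9.84, 10.70 and 10.93 on GSC arrays, and values of 4.65 and 4.48 on ESC arrays. The gap between the highest gPS and the lowest GSC array was wider than the spread within either group. Hoxb7 signal was at least 22.6-fold lower in gPS lines, where it was undetected on every array (log2 change -5.77, SE 0.18, adjusted p = 2.63e-11). For probes undetected throughout a group the fold is a lower bound. It divides the brighter group's mean by a floor averaged over the dim arrays, which is the weakest detected signal of each array or, if larger, what the probe itself read there. The fitted log2 change itself depends on the background level.

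Hoxb4, known for its role in blood stem cells, had 4.68, 4.78 and 5.0 on gPS arrays (lowest, median, highest), 7.38, 8.94 and 9.30 on GSC arrays, and 4.68 and 4.49 on ESC arrays. It was at least 6.12-fold lower in gPS lines (log2 change -3.90, SE 0.26, adjusted p = 2.93e-08). Hoxb5, which acts in neural crest and the enteric nervous system, had 4.99, 5.51 and 6.08 on gPS arrays, 7.77, 8.89 and 9.62 on GSC arrays, and 5.77 and 5.73 on ESC arrays. It was at least 6.94-fold lower in gPS lines (log2 change -3.41, SE 0.30, adjusted p = 4.43e-07). Hoxb6, a gene of trunk and limb bud mesoderm, had 4.47, 4.51 and 4.62 on gPS arrays, 6.61, 7.82 and 8.81 on GSC arrays, and 4.55 and 4.72 on ESC arrays, and was at least 3.36-fold lower in gPS lines (log2 change -3.31, SE 0.32, adjusted p = 9.95e-07). For these 3 genes too no gPS array reached the lowest GSC array.

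Hoxb2, a hindbrain patterning gene, was detected on 2 of the 6 gPS arrays, close to where detection began there. It had 4.79, 5.61 and 6.08 on gPS arrays, with OG2 lines 1 and 3 detected at 6.04 and 6.08, against 8.03, 9.04 and 9.55 on GSC arrays and an undetected 4.87 and 5.29 on ESC arrays. The groups did not overlap, and the log2 change was -3.32 (SE 0.25, adjusted p = 1.13e-07).

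Hoxb1, Hoxb3 and Hoxb9 lay near the detection level even in germline stem cells. Hoxb1, which acts earliest in the hindbrain, was measured by 2 probes, undetected on all gPS and ESC arrays and detected on 3 and 4 GSC arrays. One probe had 4.44, 4.65 and 4.71 on gPS arrays against 4.76, 5.75 and 6.21 on GSC arrays, and the other 4.44, 4.63 and 4.74 against 4.98, 5.91 and 6.38. Their log2 changes were -1.07 and -1.22 (adjusted p = 0.000457 and 0.000202), and neither bound reached a fold above 1. Hoxb9, a gene of the thoracic region, had 4.49, 4.62 and 4.75 on gPS arrays against 4.46, 5.83 and 6.49 on GSC arrays, 4 of them detected, and its groups overlapped through GSC OG2 line 2. Its log2 change was -1.05 (SE 0.24, adjusted p = 0.00185), and its bound did not reach a fold above 1 either. Hoxb3 had 3 probes: 1 was detected on GSC OG2 lines 1 and 3 only (5.63 and 5.71) with a log2 change of -0.38 (95% interval -0.84 to 0.08, adjusted p = 0.138), 1 on the gPS OG2-ROSA line 2 array only (6.41) and 1 on none. Hoxb8 and Hoxb13, with 1 probe each, stayed undetected, so detection along the cluster was interrupted between Hoxb7 and Hoxb9. A silent Hoxb8 gene and a probe that gives no signal cannot be told apart here.

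**Figure D2:**
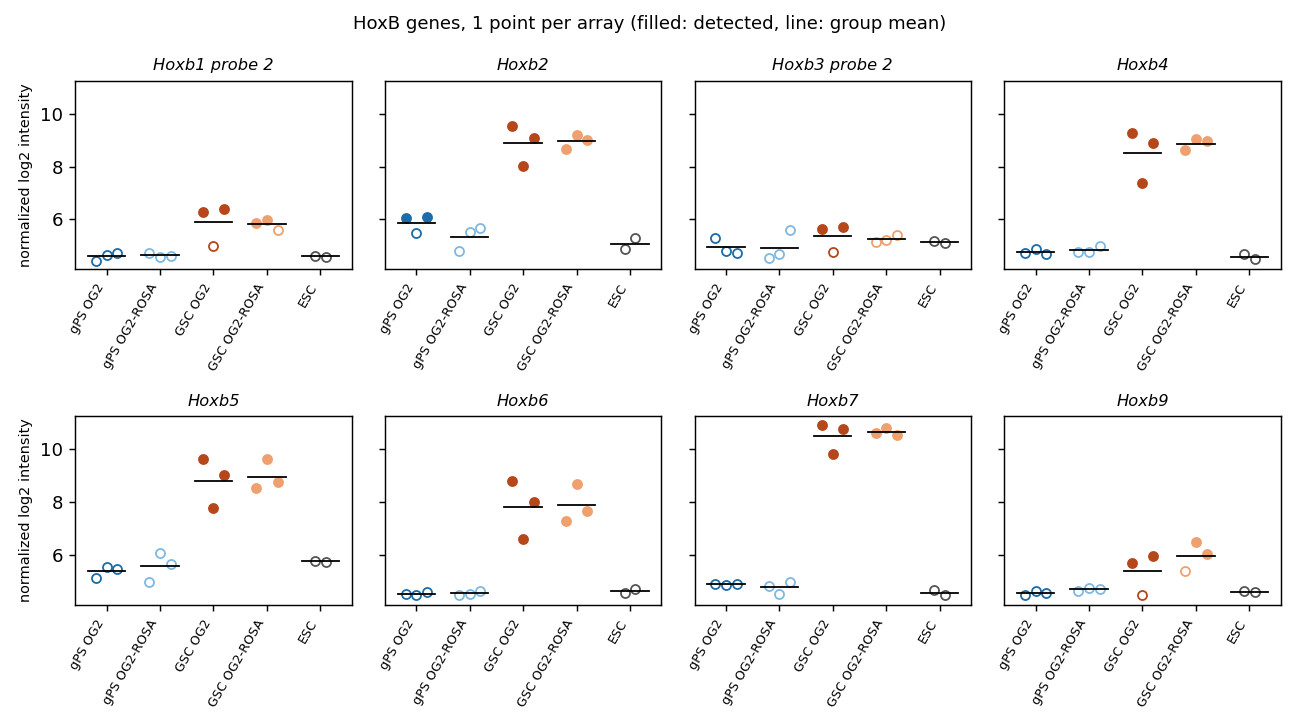
Normalized log2 intensity of 8 HoxB genes, with 1 point per array, filled where detected, and a line at each group's mean (3 arrays per gPS and GSC group, 2 ESC arrays). For Hoxb2, Hoxb4, Hoxb5, Hoxb6 and Hoxb7 every GSC array stands above every gPS and ESC array, and the lowest GSC point is OG2 line 2.

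Among the HoxC genes the calls were Hoxc6, Hoxc9 and Hoxc10. Hoxc6, a gene of the cervical to thoracic region and of mammary gland, had 4.74, 5.31 and 7.13 on gPS arrays, 7.56, 8.03 and 9.20 on GSC arrays, and 5.83 and 6.17 on ESC arrays. It was detected on gPS OG2 line 2 (6.47) and gPS OG2-ROSA line 3 (7.13) and on 1 ESC array. The groups did not overlap, and the log2 change was -2.61 (SE 0.43, adjusted p = 0.000151). Hoxc9, which specifies thoracic motor neurons, had 4.51, 4.58 and 5.24 on undetected gPS arrays, 6.06, 7.62 and 10.05 on GSC arrays, and 4.56 and 4.79 on ESC arrays. It was at least 3.54-fold lower in gPS lines (log2 change -3.23, SE 0.61, adjusted p = 0.000397). Its standard error was the largest among the called probes.

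The Hoxc10 probes disagreed. The called one had 4.45, 4.58 and 4.69 on gPS arrays and 4.73, 5.16 and 7.71 on GSC arrays, detected on 2 of them (log2 change -1.28, SE 0.51, adjusted p = 0.043), and its bound reached no fold above 1. The other had 4.89, 5.74 and 6.23 on gPS arrays and 5.42, 5.71 and 7.44 on GSC arrays, detected on 1 and 3 of them, and its change of -0.54 did not pass (adjusted p = 0.246). The call was lost in 8 of 12 fits without 1 array, with an adjusted p of up to 0.112. Hoxc13, known from hair and nail, was detected on 2 GSC arrays and its change of -0.28 (95% interval -0.86 to 0.30) did not pass (adjusted p = 0.379).

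Hoxd8 was the only HoxD gene tested. It had 4.58, 4.75 and 5.44 on undetected gPS arrays, 5.27, 6.45 and 7.54 on GSC arrays, 5 of them detected, and 4.50 and 4.78 on ESC arrays. The groups overlapped through GSC OG2-ROSA line 2, the array on which it was undetected. Hoxd8 was at least 1.26-fold lower in gPS lines (log2 change -1.59, SE 0.24, adjusted p = 5.64e-05). With the mean of the stromal markers as a covariate its change was -0.75 (adjusted p = 0.0618). The other 11 Hox calls of this comparison passed with that covariate.

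The 3 HoxA genes tested did not pass. Hoxa7, a trunk gene, had 5.05, 5.25 and 6.34 on gPS arrays and 5.13, 5.80 and 7.04 on GSC arrays (log2 change -0.49, 95% interval -1.09 to 0.11, adjusted p = 0.142). Hoxa5, needed for lung development, was detected on 2 arrays only, gPS OG2 line 3 (7.03) and GSC OG2 line 1 (5.95), and its change was -0.17 (-0.92 to 0.58, adjusted p = 0.69). Without gPS OG2 line 3 both passed, with changes of -0.56 for Hoxa5 (adjusted p = 0.0259) and -0.69 for Hoxa7 (0.0304). Hoxa7 also passed without GSC OG2 line 3. Hoxa13, a gene of the distal limb and the urogenital tract, was detected by 1 of its 3 probes on 4 gPS, 5 GSC and 1 ESC array, at 5.63 to 6.50, 5.50 to 6.10, and 5.97 and 6.13. That probe's log2 change was 0.28 (95% interval -0.07 to 0.63, adjusted p = 0.143), its sign turned under median scaling, and the other 2 probes were detected on 1 array or none, so a level for Hoxa13 is uncertain.

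The conversion was then examined within each background. In OG2, 10 Hox probes from 9 genes fell in gPS lines and 0 rose, where 26.2% of all probes were called lower, 23.2% higher and 49.4% either way. In OG2-ROSA, 11 probes from 10 genes fell and 0 rose, where 26.2% of all probes were called lower, 23.9% higher and 50.1% either way. The limit from the detection filter given above holds for these counts too. Hoxb7 had log2 changes of -5.63 in OG2 and -5.90 in OG2-ROSA, and Hoxc9 of -3.63 and -2.83. Hoxb9 passed in OG2-ROSA (-1.28, adjusted p = 0.00671) and had -0.81 in OG2 (0.0636). With the stromal covariate 3 of the 10 calls in OG2 were lost (Hoxc6, Hoxd8 and 1 Hoxb1 probe) and Hoxb9 was gained, and in OG2-ROSA 1 of the 11 was lost (Hoxd8). The difference between the backgrounds itself was called for 0 of the 18 Hox probes by limma, with 1 at an unadjusted p under 0.05, and for 0.00767% of all probes. That 1 was Hoxd8, whose change was -0.98 in OG2-ROSA and -2.19 in OG2, a difference of 1.21 (95% interval 0.19 to 2.22, adjusted p = 0.882). In OG2-ROSA 2 of the 3 gPS arrays were the dim ones. Without both of them, gPS OG2-ROSA was line 3 alone, which is then assumed to vary like the other groups, and which had the highest stromal sum of the gPS arrays. In that fit 6 of the 11 probes were called, and the lost calls were Hoxb9, Hoxc6, Hoxc9, Hoxd8 and 1 Hoxb1 probe.

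**Figure D3:**
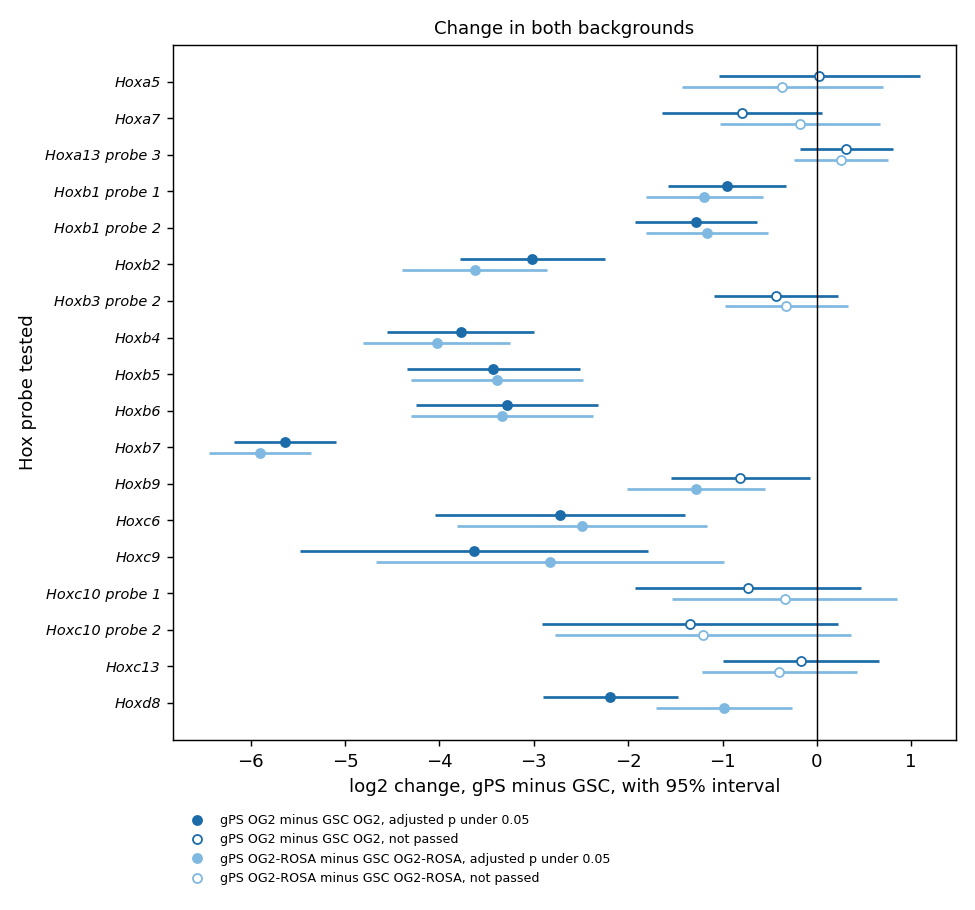
Fitted log2 change, gPS minus GSC, of the 18 Hox probes tested in OG2 (dark) and OG2-ROSA (light), with 95% intervals from limma; filled points passed at an adjusted p under 0.05. Hoxb7 lies farthest from 0 at -5.63 and -5.90, the intervals of the 2 backgrounds overlap for every probe, and Hoxd8 has the widest gap at -2.19 and -0.98.

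The pluripotent lines were also set against embryonic stem cells. In gPS OG2 against ESC, 0 of the 18 Hox probes were called by limma, with 0 at an unadjusted p under 0.05 and 0.836% of all probes called. In gPS OG2-ROSA against ESC 0 were called as well, with 0 unadjusted and 0.261% of all probes called. The fitted changes ran from -0.37 (Hoxb5) to 0.90 (Hoxa5) for gPS OG2 and from -0.40 (Hoxc6) to 0.64 (Hoxa7) for gPS OG2-ROSA. The intervals remained wide: over both comparisons they reached from -2.14 to 2.15, both ends from Hoxc9. These intervals use 1 spread shared by all 5 groups, and Hoxc9 varied most on the GSC arrays (SD 1.51 in OG2 and 2.15 in OG2-ROSA). Its SD was 0.07 in gPS OG2, 0.42 in gPS OG2-ROSA and 0.16 on the ESC arrays, where it was undetected throughout. A missed threshold does not show that levels were alike. With array weights, Hoxa5 and Hoxa7 were called higher in gPS OG2 (log2 changes 1.76 and 1.21, adjusted p = 0.0147 and 0.0172).

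Single gPS lines held Hox signal above the detection level. In gPS OG2 line 3 these were Hoxa5 at 7.03, Hoxa7 at 6.34, Hoxb2 at 6.08 and the Hoxa13 probe at 6.22. On that array 6 of 9 stromal markers were detected (summed signal 2630), and the peritubular markers Acta2 and Tagln had 12.78 and 7.25, their highest values on the 14 arrays. In gPS OG2-ROSA line 3 the 1 detected gene was Hoxc6 at 7.13, on the array with 7 of 9 stromal markers detected and the highest stromal sum among the gPS arrays (3530). Hoxc6 at 6.47 in gPS OG2 line 2 stood beside 4 of 9 markers detected and a sum of 2032. Hox genes were also detected where only 2 of 9 stromal markers were. In gPS OG2-ROSA line 2 these were Hoxb3 at 6.41, Hoxd10 at 6.28 and Hoxa13 at 6.44 and 6.50 by its probes (stromal sum 3099). In gPS OG2 line 1 they were Hoxb2 at 6.04 and Hoxa13 at 6.07 (sum 1336). In gPS OG2-ROSA line 1 it was Hoxc10 at 6.23 (sum 1849). The part of other cells in all these values was not tested.

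Germline stem cells were also set against embryonic stem cells. In GSC OG2 against ESC, 11 of 18 Hox probes from 10 genes were higher and 0 lower, where 24% of all probes were called higher, 21.8% lower and 45.7% either way. The median log2 difference was 1.5, against 0.02 over all probes. Here too many of the 18 probes passed the detection filter through GSC arrays alone. The count and the median thus describe the tested probes and lean toward higher GSC values by that choice. The called genes were Hoxb1, Hoxb2, Hoxb4, Hoxb5, Hoxb6, Hoxb7, Hoxc6, Hoxc9, Hoxd8 and Hoxa7. Hoxb7 was at least 21-fold higher in GSC OG2 (log2 difference 5.95, adjusted p = 7.27e-09), Hoxb2 at least 6.81-fold and Hoxb5 at least 6.43-fold. Hoxa7 was called here (1.55, SE 0.44, adjusted p = 0.0114), with 6.32, 7.04 and 5.55 on the GSC OG2 arrays and an undetected 4.78 and 4.72 on the ESC arrays. This comparison and the gPS comparison in OG2 share the GSC OG2 arrays. The call count moved with the ESC arrays and with the stromal markers. Without ESC array 1, or with the ESC arrays averaged into 1 sample, 7 of the 11 probes passed, and Hoxa7, Hoxc6, Hoxc9 and 1 Hoxb1 probe were lost. With the stromal covariate 4 of the 11 calls were lost (Hoxa7, Hoxc6, Hoxd8 and 1 Hoxb1 probe) and Hoxb9 was gained.

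Between backgrounds within a cell type, limma called 0 of 18 Hox probes in GSC OG2-ROSA against GSC OG2 (1 at an unadjusted p under 0.05, and 0.00767% of all probes called) and 0 in gPS OG2-ROSA against gPS OG2 (0 unadjusted, 0.222% of all probes called). The 1 was again Hoxd8, with 6.21, 5.27 and 6.44 in GSC OG2-ROSA lines 1 to 3 against 6.64, 7.54 and 6.47 in GSC OG2 lines 1 to 3 (log2 difference -0.91, 95% interval -1.62 to -0.19, adjusted p = 1).

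Hox levels differed between the 6 GSC lines, where line and array cannot be told apart with 1 array each. In OG2 lines 1 to 3, Hoxc9 had 9.54, 8.59 and 6.58, and in OG2-ROSA lines 1 to 3 it had 6.06, 10.05 and 6.66. The called Hoxc10 probe had 7.58, 5.56 and 4.77 in OG2 and 4.73, 7.71 and 4.77 in OG2-ROSA, and Hoxc13 had 6.25, 5.18 and 4.96 in OG2 and 5.15, 6.68 and 5.31 in OG2-ROSA. OG2 line 1 and OG2-ROSA line 2 were thus the highest for Hoxc9, Hoxc10 and Hoxc13, and these were the only GSC lines in which the called Hoxc10 probe and Hoxc13 were detected. Hoxc6 followed with 9.20 and 9.05 in the same lines against 7.56 to 8.21 in the other 4, and Hoxc11 was detected in OG2-ROSA line 2 alone. Hoxc9 itself was detected in all 6 GSC lines, and Hoxc12, which lies among these genes, in none.

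Several HoxB genes shared the high end of this order. Hoxb2, Hoxb4, Hoxb5, Hoxb6 and Hoxb7 were also highest in OG2 line 1 and OG2-ROSA line 2. Hoxb6 had 8.81 and 8.70 there against 6.61 to 7.99 in the other lines, and Hoxb7 10.93 and 10.82 against 9.84 to 10.77. Hoxb1, Hoxb3 and Hoxb9 did not have both of these lines highest. The low end differed from that of the HoxC genes. GSC OG2 line 2 had the lowest value of the 6 GSC arrays for the tested probes of Hoxb1, Hoxb2, Hoxb3, Hoxb4, Hoxb5, Hoxb6, Hoxb7 and Hoxb9. Hoxb4 had 7.38 there and 8.64 to 9.30 in the other 5 lines, and Hoxb7 had 9.84 there and 10.55 to 10.93 in the other 5. On the same array Hoxd8 at 7.54 and Hoxa7 at 7.04 were the highest of the 6. Hoxc9 stood at 8.59 there, below OG2-ROSA line 2 and OG2 line 1 and above the other 3 lines.

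Marker levels moved with some of these patterns. The mean log2 intensity of the 9 stromal markers was 8.79, 9.18 and 8.33 in GSC OG2 lines 1 to 3 and 8.43, 6.33 and 7.84 in GSC OG2-ROSA lines 1 to 3. GSC OG2 line 2, lowest in HoxB and highest in Hoxd8 and Hoxa7, had the highest stromal sum (17900) and the highest Wt1 (10.30). GSC OG2-ROSA line 2 had the lowest stromal sum (1240), just below the ESC arrays, with Lum undetected, and it was the line in which Hoxd8 was undetected. In that line Hoxb7 at 10.82, Hoxb4 at 9.04 and Hoxc9 at 10.05 were among the 2 highest of the GSC arrays. Pou5f1 was highest in the 2 lines with the highest Hoxc9, at 12.07 and 10.28 against 7.02 to 9.70 in the other 4, and Sox2 likewise at 7.62 and 7.14 against 4.89 to 6.10. Esrrb ran the other way, at 6.76 and 7.71 against 7.88 to 8.20, Zfp42 was highest in only one of these lines, and Nanog was undetected in all 6. The summed germline markers were 15600 and 11600 in those lines, the highest and the lowest of the 6. The part of these markers in the Hox values was not tested beyond the covariate fit above.

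**Figure D4:**
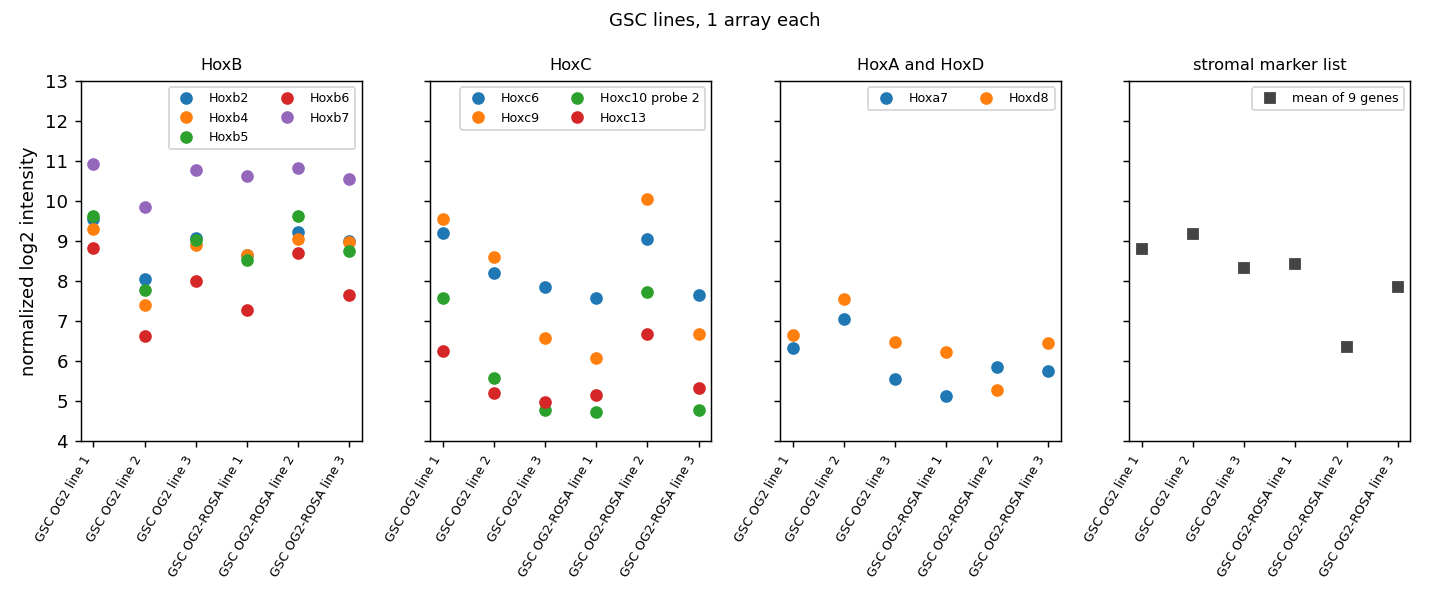
Normalized log2 intensity in the 6 GSC lines, 1 array each, of HoxB, HoxC and HoxA or HoxD genes and of the mean of 9 stromal markers. Hoxc9, Hoxc10, Hoxc13 and the HoxB genes shown are highest in OG2 line 1 and OG2-ROSA line 2. The HoxB genes are lowest in OG2 line 2, and the stromal mean runs from 6.33 in OG2-ROSA line 2 to 9.18 in OG2 line 2.

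Regulators and neighbours of the clusters were then read in the same comparison of gPS with GSC, with the share of all probes called (63.9%) as background. Among the Hox cofactors 1 of 5 tested rose and 4 did not pass. Pknox1, a partner of Pbx proteins, rose to 7.28 ± 0.35 in gPS lines against 6.81 ± 0.17 in GSC lines (mean log2 intensity ± SD, n = 6 each; log2 change 0.47, adjusted p = 0.0242). This call was lost in 5 of 12 fits without 1 array, and under median scaling the change was 0.03. Meis1, a cofactor of many Hox proteins, had a change of 0.17 (95% interval -0.38 to 0.72, adjusted p = 0.577), with the opposite sign under median scaling.

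Of 11 tested Cdx and retinoic acid genes, 4 rose, 3 fell and 4 did not pass, with a median log2 change of 0.04. Cdx1, which activates Hox genes in the embryo, rose: it had 5.75 to 9.45 on gPS arrays and 5.0 to 5.63 on GSC arrays, detected on 5 and 1 of 6 (log2 change 2.50, SE 0.50, adjusted p = 0.000627). Cdx2 had 4.82 to 7.78 on gPS arrays, 3 of them detected, and was detected on no GSC array (at least 1.36-fold higher, adjusted p = 0.000386). Cdx4 was not tested, being detected on fewer than 2 arrays. On the ESC arrays Cdx1 had a mean of 6.89, detected on both, and Cdx2 a mean of 4.76, detected on neither. A link between Cdx and Hox levels was not tested. Gbx2, a homeobox gene of the midbrain and hindbrain border, rose by a log2 change of 5.40 (adjusted p = 4.26e-07). Stra8, a retinoic acid target of germ cells entering meiosis, fell by 3.17 on the log2 scale (adjusted p = 0.000124). Crabp1, a retinoic acid binding protein, fell by 2.43 (adjusted p = 6.32e-06).

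Polycomb genes changed in both directions: 11 of 24 tested rose, 8 fell and 5 did not pass. Ezh2, the main methyltransferase of polycomb complex PRC2, rose by a log2 change of 1.58 (SE 0.19, adjusted p = 8.58e-06), with 10.69 ± 0.37 in gPS lines and 9.12 ± 0.31 in GSC lines. Cbx7, a reader subunit of complex PRC1, rose by 1.78 (adjusted p = 3.21e-07). Its paralog Cbx8 was undetected on every gPS and ESC array and at least 6.13-fold lower in gPS lines (adjusted p = 2.7e-10), with 4.58 to 4.98 on gPS arrays and 8.23 to 9.06 on GSC arrays. Bmi1, another PRC1 subunit, was undetected on every gPS and ESC array too and at least 3.80-fold lower (adjusted p = 1.36e-08). Pcgf5, related to Bmi1, fell by 3.24 on the log2 scale to 9.92 ± 0.63 in gPS lines, against 13.17 ± 0.23 in GSC lines. Among these PRC1 genes Cbx7 thus rose while its paralog Cbx8 and Bmi1 fell in the same arrays.

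Trithorax genes and H3K27 demethylases were called in 6 of 10 cases, 2 higher and 4 lower. The H3K27 demethylase Kdm6a rose by a log2 change of 1.97 (adjusted p = 9.3e-08) and its paralog Kdm6b fell by 1.11 (adjusted p = 0.000596). Dpy30, a subunit of the methyltransferase complexes for histone H3 lysine 4, rose by 0.74, and the methyltransferase Kmt2b fell by 0.73 (adjusted p = 0.00259 and 0.00334). Kmt2a was not analysed here.

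The genes around the clusters did not share the one direction that the Hox calls had in the main fit. Of 20 tested cluster neighbours 6 rose, 7 fell and 7 did not pass, with a median log2 change of 0.00. Skap2 and Jazf1, on opposite sides of HoxA, fell, with log2 changes of -1.55 and -1.54, and Snx10, on the same side of HoxA as Skap2, rose by 1.03 (adjusted p = 1.94e-05, 1.89e-06 and 0.00334). Jazf1 was undetected on every gPS array and at least 1.22-fold lower in gPS lines. Cbx1, near HoxB, rose by 0.94 (adjusted p = 0.000429). Evx1, a homeobox gene at the end of HoxA, was undetected on all GSC arrays, detected on 2 gPS arrays and reached 8.65 there (log2 change 1.03, 95% interval 0.09 to 1.97, adjusted p = 0.0525). Without gPS OG2 line 1 its change was 1.49 and passed (adjusted p = 0.000511). Its counterpart Evx2 at HoxD was not tested, being detected on fewer than 2 arrays. Taking instead the 3 nearest protein-coding genes on each side of each cluster in the RefSeq gene order, 5 of 16 tested rose and 5 fell, with changes of -1.55 to 1.07.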

How the data were processed

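The deposited table held, per the file headers, for each of 14 arrays a signal intensity per probe, which by its values was on a linear scale without background subtraction, and a detection p-value. Arrays of each gPS and GSC line and of ESC were grouped by their labels. BeadStudio 3.2, RMA and lumi are named in the submitters' processing notes without a role. A table of the authors' processed log2 values was deposited as well and was used as an alternative. Its columns had identical quantiles with a median of 4.23, while its background correction, and the genome build, are not given in the sources used here. The p-values were the authors' own and were used as deposited, to call a probe detected (under 0.01) and to fit the background.

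From the intensities, limma 3.58.1 (R 4.3.3) made log2 values by normexp background correction with detection p-values, an offset of 16 and quantile normalization. Probes detected on at least 2 of 14 arrays were kept (13034). A linear model over the 5 group means on all 14 arrays, with eBayes, gave each comparison, with Benjamini-Hochberg adjustment over these probes and a threshold of 0.05. Intervals are 95%. A gPS minus GSC change is the average of both backgrounds. The number of arrays limits the precision. The script was tested on simulated data.

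Of 25697 probes 23978 carried 1 gene symbol in the platform annotation, 0 several, and 1719 were not listed in it. All 50 Hox probes matched the RefSeq gene table through their gene identifiers and 0 symbols changed. Where a listed gene had several probes, that with the highest mean was used. Hox probes were kept apart. The members, the gene lists and the tests were chosen with earlier results of these data known. The rule for naming took every Hox gene, with full statistics for those called, and from each list up to 4 called genes with the largest absolute change in gPS minus GSC, plus Cdx1, Cdx2, Cdx4, Meis1, Kmt2a, Ezh2, Evx1 and Evx2 whatever they did. An item of that rule is not reported here.

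Line numbers did not pair gPS with GSC lines: same-numbered deviations correlated at -0.16 to 0.00, and 0 of 12 arrays correlated best with their own number. Alternatives were other background offsets, median scaling, other filters, array weights, the authors' processed values, the line number as a block, the stromal marker mean as a covariate and each array left out. A block by chip was not run, as the columns name no chip.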

Additional observations from a re-analysis of the deposited data

Results flagged for a closer look

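Of 36 sets of 6 arrays (each tested Hox probe in all gPS and in all GSC lines), 6 had 1 array standing apart from the other 5, by Dixon's test with a critical value of 0.625. By chance about 5% of such sets would be picked out. Hoxa5 stood high in gPS OG2 line 3 at a log2 intensity of 7.03, detected there and in no other gPS line. Hoxb4 stood low in GSC OG2 line 2 at 7.38, and Hoxb7 stood low in the same line at 9.84, both detected. The other 3 were among undetected values, which have no firm order: Hoxb7 was low in gPS OG2-ROSA line 2 at 4.52, and Hoxc9 and Hoxd8 were high in gPS OG2-ROSA line 3 at 5.24 and 5.44.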

How the results depend on the processing

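Leaving out each array in turn gave 11 to 13 called Hox probes for gPS minus GSC, 9 to 11 in OG2, 10 or 11 in OG2-ROSA and 7 to 12 for GSC OG2 minus ESC, the lowest without ESC array 1. The other alternatives gave 8 to 13, 8 to 12, 6 to 12 and 7 to 13. Requiring detection on all arrays of a group gave the 8, with fewer probes tested. Some added calls ran against the main direction. Without gPS OG2-ROSA line 1, Hoxa13 was called higher in gPS lines (0.38). Without a probe filter, or at a detection p under 0.05, so was Hoxd11 (means 5.51 in gPS and 4.90 in GSC lines). The latter filter also called Hoxa13 higher in gPS OG2-ROSA. Under both filters Hoxd11 was called lower in GSC OG2 (4.89) than in ESC (5.90), and without a filter Hoxa10 was added there. Array weights called 2 probes in gPS OG2 minus ESC (Hoxa5 and Hoxa7), where 0 were called otherwise. Leaving out both dim arrays (6 in OG2-ROSA) and averaging the ESC arrays (7 in GSC OG2 minus ESC) were chosen after seeing the data. At a detection p under 0.05, a mean of 5.5 Hox genes per gPS array, 15.17 per GSC array and 5.5 per ESC array were detected, and at 0.001 a mean of 0.333, 9.67 and 0. Median scaling reversed Hoxa13 (-0.0085) and Meis1 (-0.12). Hoxa5 reversed with array weights (0.11), with the stromal covariate (0.28) and without gPS OG2 line 1 (0.0537, the highest without 1 array, against a lowest of -0.56). The cause was not tested. The Hoxc10 call was lost in 6 of 11 alternatives (adjusted p up to 0.137). The stromal covariate also ended the calls of Pknox1, Kmt2b and Snx10. The numbers do not pair the samples; with the line number as a replicate block, 11 Hox probes were called for gPS minus GSC (Hoxc10 lost) and 9 in OG2. Signals near the background limit every gene detected on few arrays.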
